A study of Homo sapiens with 12 samples.

Results

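15-Deoxy-Δ12,14-prostaglandin J2 (15d-PGJ2) was compared with no prostaglandin in dexamethasone-treated GR3KR cells, on 6 of the 12 arrays of the study. GR3KR cells are HEK293 human embryonic kidney cells that stably express a glucocorticoid receptor deficient in SUMOylation, and they are isogenic with a line that expresses the wild-type receptor (wtGR). Arrays were chosen by their titles, which gave 3 arrays of GR3KR cells with 100 nM dexamethasone and 5 µM 15d-PGJ2 for 6 h (called treated here) and 3 arrays of GR3KR cells with 100 nM dexamethasone alone for 6 h (called control). The other 6 arrays, 3 of wtGR cells with both agents and 3 of wtGR cells with dexamethasone, entered the estimate of the spread and were set beside the GR3KR values where stated. All cells had first spent 36 h in steroid-depleted medium. Since every sample received dexamethasone, a response to 15d-PGJ2 that needs the hormone and one that does not cannot be told apart. Whether the lines are single clones and whether the triplicate arrays come from separate cultures is not given in the sources used here, so the p-values cover the spread among these arrays, which may be technical, and the number of arrays limits the precision.

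15d-PGJ2 is an electrophilic cyclopentenone prostaglandin that reacts with thiol groups of proteins. Electrophiles of this kind are known to activate HSF1, the transcription factor of the heat shock response, and NRF2, which drives genes of haem, glutathione and thioredoxin metabolism, and they can set off the integrated stress response, in which ATF4 induces genes of amino acid supply. The glucocorticoid receptor is a hormone-activated transcription factor that matures in a complex with HSP70 and HSP90 chaperones. SUMO, a small protein joined to lysines of the receptor, modulates its activity at a subset of target genes, and the series asks whether 15d-PGJ2 acts on glucocorticoid signalling through this modification.

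The 3 treated arrays differed in quality from the controls and from each other, which bears on every value below. Treated arrays 1, 2 and 3 detected 15223, 14207 and 17032 probes (detection p under 0.01), against 19061, 17959 and 18831 probes on control arrays 1, 2 and 3 and 18392 to 19950 on the wtGR arrays. Where a gene had several probes, they disagreed on the treated arrays. The SD of the difference between a gene's probes, each taken as its deviation from the control mean, was 2.42, 2.23 and 1.18 on the log2 scale on treated arrays 1, 2 and 3, against 0.54, 0.52 and 0.24 on the controls (2121 probe pairs). The wtGR arrays ran from 0.39 to 1.15 on the same measure. Treated arrays 1 and 2 thus stood apart. Treated array 3 lay just above the range of the wtGR arrays on this measure and below their range of detected probes. Over all genes it correlated more closely with the controls (r of 0.926, 0.967 and 0.953) than with treated arrays 1 and 2 (0.880 and 0.917). A gene was counted as agreeing where it was called, all 3 treated arrays lay on one side of all 3 controls, every other kept probe of the gene moved the same way without overlap, and the brighter group was detected on all 3 arrays. HSPA6 is described although its other kept probe, undetected on these arrays, keeps it out of that count. Treated array 3 was also read alone, with the spread taken from the other groups. Of 143 agreeing genes named by rule, 10 were called in array 3 alone (HSPA1A, HSPA1L, HSPA7, ZFAND2A, HMOX1, STC2, TEX19, EIF4G1, FTL and CYBA) and 133 were not. The HEK293 markers LHX1, KRT8, NEFL and VIM were detected on all 6 arrays, KRT18 on 2 and NEFM on 1. The leukocyte marker CD14 and the fibroblast marker COL1A1 were also detected on all 6 arrays, and the leukocyte marker LCP1 on 4. COL1A1 was called higher (0.70, limma adjusted p = 0.031), and CD14 and LCP1 were not called. PAX2, the leukocyte markers PTPRC and CD3E, the fibroblast markers COL1A2 and COL3A1, the endothelial markers PECAM1, CDH5 and KDR and all 5 markers of mature kidney tubule did not pass the detection filter (detection p under 0.01 on at least 3 of the 12 arrays). The summed linear level of the 6 measured HEK293 markers was 5299 to 7798 on treated and 9161 to 12650 on control arrays, and the members differed in direction. KRT8, a keratin, was higher by 1.13 (adjusted p = 0.0116) and LHX1, a kidney transcription factor, by 0.74 (adjusted p = 0.0389), while VIM, a filament protein, was lower (-2.59, adjusted p = 0.0154), with log2 intensities of 8.90, 10.10 and 12.31 on treated and 13.31, 12.79 and 12.98 on control arrays. For the other types the sums were 207 to 504 and 187 to 208 over 2 measured leukocyte markers, 102 to 178 and 70.0 to 86.9 for the 1 measured fibroblast marker, and 23.6 to 30.4 and 21.7 to 23.4 for the 1 measured endothelial marker, treated first. What part these shifts have in the results was not tested.

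**Figure D1:**
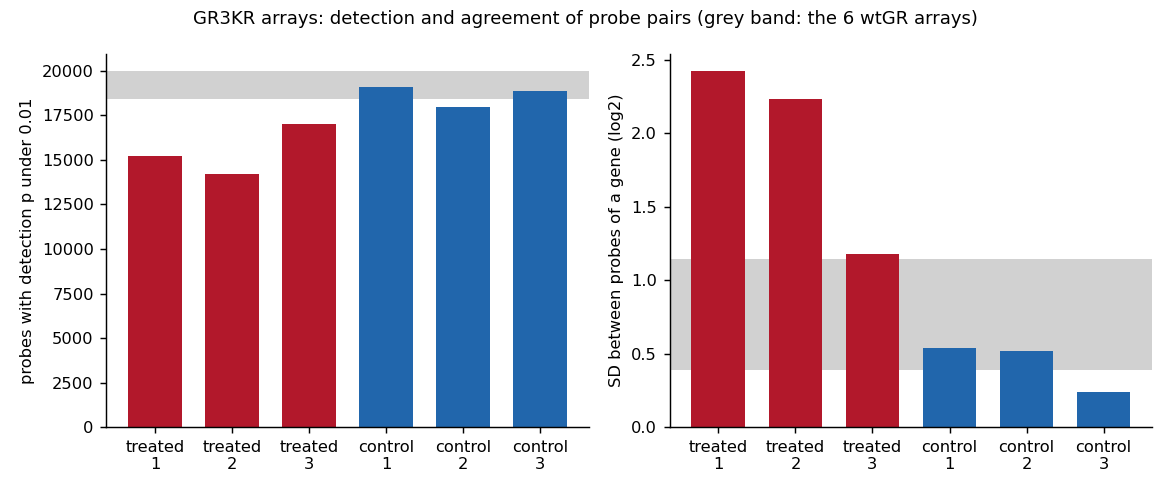
Number of detected probes (left) and SD of the log2 difference between the probes of a gene (right) on the 3 treated arrays (GR3KR, dexamethasone and 15d-PGJ2, red) and the 3 control arrays (GR3KR, dexamethasone, blue). The grey band is the range of the 6 wtGR arrays, and treated arrays 1 and 2 lie farthest outside it on both measures.

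A large share of all genes passed the test. Of 12337 genes, 5608 were called at an adjusted p under 0.05 (45.5%; limma with Benjamini-Hochberg adjustment), 3782 higher (30.7%) and 1826 lower (14.8%) on the treated arrays. Arrays and probes agreed for 3902 of these (31.6% of all genes), 2698 higher (21.9%) and 1204 lower (9.76%). Among the 3228 genes with several kept probes the agreeing share was 11.7% (377 genes, 179 higher and 198 lower). The direction rested on the scaling: 67.4% of the calls were higher after quantile normalization, 51.9% after cyclic loess and 18.2% after median scaling (524 higher and 2358 lower). The median log2 difference over all genes moved with it and was 0.26, 0.07 and -0.08 in the same order, so differences near these values carry no direction. Beside the falls stood low detection, since 267 of the 1204 were detected on 0 treated arrays, 386 only on treated array 3, and 451 on all 3.

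With treated array 3 as the only treated sample, 60 genes were called (0.486%), against 2370 at an unadjusted p under 0.05. Of the 60, 55 had also been called with agreement on all arrays, 12 higher and 43 lower. All 3902 agreeing genes had the same sign in array 3, which is itself 1 of the 3 arrays that had to agree. Leaving out 1 array at a time moved the 5608 calls to 2969 without treated array 1, 2578 without treated array 2, 2532 without control array 1 and 3251 without control array 3, and moved the agreeing count to 2362, 2091, 2011 and 2538 in the same order and to 5894 without treated array 3.

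Inducible heat shock genes of the HSP70 family were higher on the treated arrays; these chaperones bind unfolded proteins. HSPA6, the strictly stress-inducible HSP70, had log2 intensities of 9.87, 9.31 and 9.54 on treated and 5.91, 6.54 and 5.92 on control arrays. It was 10.9-fold higher (log2 difference 3.45, SE 0.23, limma adjusted p = 7.44e-05), and array 3 alone gave 3.42 (adjusted p = 0.00658). The treated and control arrays were far apart for this probe, while the other HSPA6 probe was detected on 0 of the 6 arrays, which leaves the gene outside the agreeing count. HSPA7, a near copy of HSPA6 classed as a pseudogene, had 8.01, 7.43 and 7.50 on treated and 5.59, 5.41 and 5.85 on control arrays and was higher too, with a log2 difference of 2.03 (SE 0.24, adjusted p = 0.00113).

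HSPA1A, the main inducible HSP70 gene, had log2 intensities of 12.72, 12.71 and 12.26 on treated and 9.89, 10.15 and 10.10 on control arrays. It rose 5.72-fold (2.52, SE 0.17, adjusted p = 7.44e-05; array 3 alone 2.21, adjusted p = 0.00658). HSPA1L, its head-to-head neighbour, had 8.71, 8.52 and 7.91 on treated and 6.24, 6.07 and 5.86 on control arrays and rose 5.02-fold (2.33, SE 0.23, adjusted p = 0.000628; array 3 alone 1.86, adjusted p = 0.0269). In both genes the 3 treated arrays lay more than 1 log2 unit above every control. The near-identical paralog HSPA1B did not follow, with 9.81, 9.44 and 10.64 on treated and 11.30, 9.89 and 10.71 on control arrays (log2 difference -0.67, SE 0.45, adjusted p = 0.23). Signal can be shared between probes of HSPA1A and HSPA1B, and of HSPA6 and HSPA7, so the split within each pair is uncertain.

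The promoters of HSPA6 and HSPA1A are shown because both genes were called over all arrays and in array 3 alone. The windows run from 250 bases before to 50 bases after the RefSeq start site in GRCh38.p14, chr1:161524290-161524589 on the plus strand for HSPA6 and chr6:31815293-31815592 on the plus strand for HSPA1A, and capitals mark pairs of inverted heat shock units, searched as GAANNTTC and TTCNNGAA, each of which reads the same on both strands.
HSPA6: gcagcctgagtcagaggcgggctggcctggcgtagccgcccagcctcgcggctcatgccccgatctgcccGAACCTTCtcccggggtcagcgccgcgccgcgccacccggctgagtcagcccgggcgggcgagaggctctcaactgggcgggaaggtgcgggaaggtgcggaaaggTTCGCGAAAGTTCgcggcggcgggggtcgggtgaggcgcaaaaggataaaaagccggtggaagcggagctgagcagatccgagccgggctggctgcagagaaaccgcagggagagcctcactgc
HSPA1A: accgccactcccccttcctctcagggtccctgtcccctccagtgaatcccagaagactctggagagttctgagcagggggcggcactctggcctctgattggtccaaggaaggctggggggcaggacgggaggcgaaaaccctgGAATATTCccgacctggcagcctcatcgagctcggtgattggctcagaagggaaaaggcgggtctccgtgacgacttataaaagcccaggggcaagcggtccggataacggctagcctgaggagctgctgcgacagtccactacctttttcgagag

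HSPA6 held 3 such pairs, starting 180, 74 and 69 bases before the start site, and the last 2 overlap, sharing 3 bases, to form a run of 3 units. HSPA1A held 1, starting 106 bases before it, and the window of HSPA1L, on the minus strand, shares 241 bases with that of HSPA1A, so the pair found in it is the same stretch. A pair occurs in 13.5% of the 35116 promoter windows of the table and a run of 3 units, a GAANNTTC and a TTCNNGAA sharing the TTC or the GAA on either strand, in 0.49%. Among the tested genes with a window, 996 of 9915 held a pair, as did 227 of 2177 genes called higher with agreement and 92 of 949 called lower with agreement, so the pair was about as frequent in each. Of the genes higher in array 3 alone as well, 9 had a window and 5 held a pair, HSPA1A and HSPA1L among them. ZFAND2A, HSPB1, HSPA1B, BAG2, DNAJA1 and HSPA8 also held at least 1 pair, of which HSPA1B is given above with no call. The windows searched for STC2, GDF15, HSPH1, BAG3, DEDD2 and DNAJB1 held 0. DNAJB1 has 3 windows in the set and DEDD2 has 2, and only the first of each was searched. A match describes the letters only.

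Over the list of HSP70 and HSP110 chaperones, 12 of 12 genes were measured, and 7 were called higher and 1 lower (30.7% and 14.8% over all genes). Of these 3 agreed (HSPA1A, HSPA1L and HSPA7, all higher), beside 21.9% of all genes that agreed higher. The list's median log2 difference was 1.10, against 0.26 over all genes, and 0.74 against 0.14 in array 3 alone. It was 0.84 against 0.07 after cyclic loess and 0.75 against -0.08 after median scaling. HSPA8, the constitutive HSP70, was called higher by its brighter probe (0.86, SE 0.16, adjusted p = 0.00618), while its other probe read -0.77, with treated arrays of 10.81, 11.58 and 12.81 and control arrays of 12.59, 12.41 and 12.51. These probes disagreed on treated arrays 1 and 2 and agreed in direction on array 3. HSPH1, an HSP110 exchange factor, had 9.84, 10.56 and 10.56 on treated and 10.56, 10.13 and 10.06 on control arrays (0.07, SE 0.24, adjusted p = 0.821).

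The list of small heat shock proteins, which are holdases, and BAG family HSP70 exchange factors also included ZFAND2A and DEDD2. It held 5 agreeing increases and 0 decreases among 7 measured genes of 8 (21.9% and 9.76% over all genes). Its median was 1.32 (array 3 alone 0.96). ZFAND2A, a stress-inducible zinc finger protein that acts at the proteasome, had 10.39, 10.51 and 10.18 on treated and 8.16, 8.74 and 8.46 on control arrays and rose 3.76-fold (1.91, SE 0.20, adjusted p = 0.000711; array 3 alone 1.73, adjusted p = 0.0411). CRYAB, the small heat shock protein alpha-B crystallin, had 8.08, 7.85 and 7.24 on treated and 5.30, 6.46 and 5.84 on control arrays and was at least 3.61-fold higher (adjusted p = 0.00488; array 3 alone adjusted p = 0.171). BAG2, an HSP70 exchange factor, rose 2.88-fold (adjusted p = 0.00403; array 3 alone 0.99, adjusted p = 0.111). DEDD2 (0.58) and HSPB1 (0.50), the small heat shock protein HSP27, were called as well, but lost the call when 1 array was left out (adjusted p = 0.137 for DEDD2 without treated array 1 and 0.0901 for HSPB1 without control array 1). BAG3, a co-chaperone of selective autophagy, had 10.10, 10.39 and 10.91 on treated and 10.37, 10.21 and 10.10 on control arrays and was not called (adjusted p = 0.399).

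**Figure D2:**
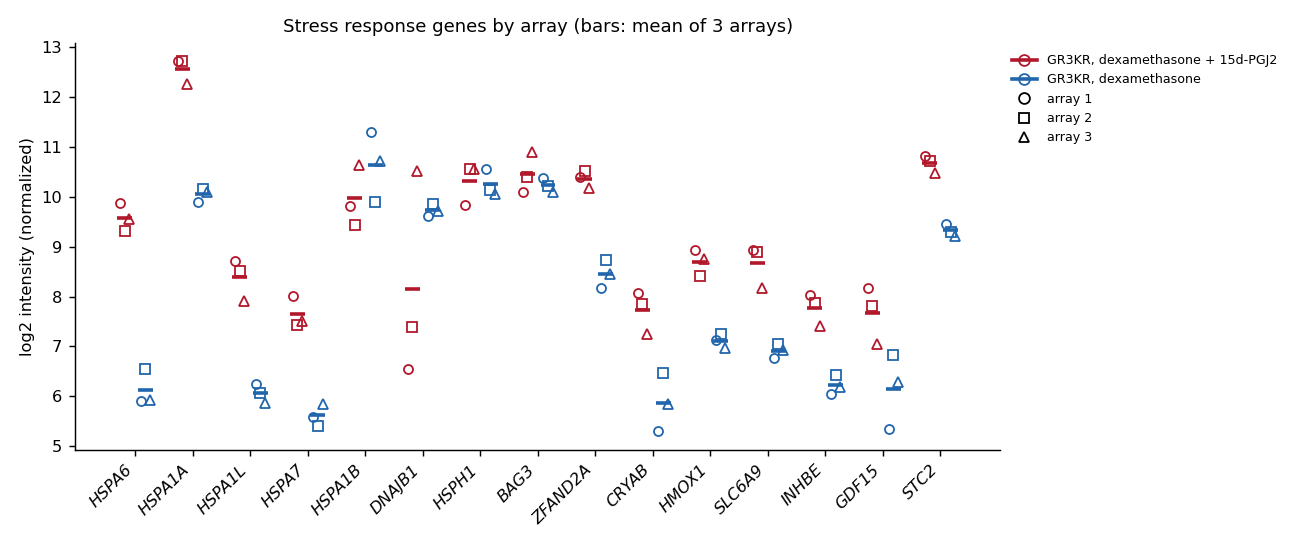
Log2 intensity of stress response genes on the 3 treated arrays (GR3KR, dexamethasone and 15d-PGJ2, red) and the 3 control arrays (GR3KR, dexamethasone, blue), with array number as the symbol and the mean as a bar. HSPA6, HSPA1A, HSPA1L, HSPA7, ZFAND2A, CRYAB, HMOX1, SLC6A9, INHBE, GDF15 and STC2 do not overlap between the groups, HSPA1B, DNAJB1, HSPH1 and BAG3 do, and DNAJB1 is above the controls on treated array 3 but below them on arrays 1 and 2.

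Among the J-domain co-chaperones, which hand clients to HSP70, 8 of 9 were measured, DNAJA1 rose (0.76, SE 0.17, adjusted p = 0.00937; array 3 alone 0.56, adjusted p = 0.228) and DNAJB5 fell (-1.97, SE 0.30, adjusted p = 0.00408; array 3 alone -1.17, adjusted p = 0.111). DNAJB1, the stress-inducible member, had 6.55, 7.38 and 10.52 on treated and 9.61, 9.85 and 9.72 on control arrays. Treated array 3 was the only one above the controls, and the log2 difference was -1.57 (SE 0.75, adjusted p = 0.104) over 3 arrays and 0.80 (adjusted p = 0.188) in array 3 alone. Without array 3 the fall was called (-2.76, adjusted p = 2.54e-05), so the direction of this gene turned on which treated arrays were read.

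The HSP90 machinery, which holds the receptor in a hormone-binding state, split: of 11 measured members, PPID, FKBP4 and ST13 rose and CACYBP, STIP1 and FKBP5 fell. Over all genes 21.9% agreed higher and 9.76% lower. FKBP4, the immunophilin FKBP52, had 10.99, 11.04 and 10.71 on treated and 10.27, 10.13 and 10.10 on control arrays and rose 1.68-fold (0.75, SE 0.14, adjusted p = 0.0062; array 3 alone 0.55, adjusted p = 0.17). PPID, the cyclophilin of the complex, rose 3.27-fold (adjusted p = 0.0106; array 3 alone adjusted p = 0.16), with 6.57, 8.25 and 7.03 on treated and 5.41, 5.68 and 5.63 on control arrays. STIP1, the HSP70-HSP90 organising protein, had 9.77, 10.04 and 11.31 on treated and 11.44, 11.51 and 11.70 on control arrays and fell by 1.18 (adjusted p = 0.017; array 3 alone -0.24, adjusted p = 0.516). Calls of STIP1, ST13 and CACYBP were lost with 1 array left out (highest adjusted p = 0.0658 and 0.0797 without treated array 2 for STIP1 and ST13, and 0.0611 without control array 1 for CACYBP). HSP90AA1 itself, the inducible HSP90, was read by 3 probes with differences of -0.02, -2.67 and -0.05 and is not called by the brightest.

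HMOX1, the inducible haem oxygenase that breaks down haem, had log2 intensities of 8.92, 8.40 and 8.75 on treated and 7.12, 7.24 and 6.98 on control arrays. It rose 2.99-fold (1.58, SE 0.18, adjusted p = 0.000951), and array 3 alone gave 1.64 (adjusted p = 0.0221). The difference was of the same size with and without treated arrays 1 and 2.

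The NRF2 target genes, HMOX1 included, did not move one way. Of 20 measured of 27, 4 agreed higher and 4 lower (21.9% and 9.76% over all genes), and the list median of 0.21 lay below that of all genes (0.26), while array 3 alone gave 0.32 against 0.14. BLVRB, a biliverdin reductase, rose 2.64-fold, with 9.54, 9.67 and 9.05 on treated and 7.73, 8.16 and 8.16 on control arrays (1.40, SE 0.22, adjusted p = 0.00448; array 3 alone adjusted p = 0.152). NQO1, a quinone reductase (0.85, adjusted p = 0.0207), and SQSTM1, the autophagy adaptor p62 (0.66, adjusted p = 0.0144), were called but lost the call with 1 array left out (adjusted p = 0.0742 without control array 1 for NQO1 and 0.0538 without treated array 2 for SQSTM1). The falls were in FTL, the ferritin light chain, the pentose phosphate enzymes PGD (-1.51, adjusted p = 0.0099) and TKT (-0.62, adjusted p = 0.0189; 0.0692 without control array 1) and the epoxide hydrolase EPHX1 (-1.40, adjusted p = 0.00515).

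Of the glutathione and thioredoxin genes most often used to read NRF2, GCLM, TXNRD1 and SRXN1 were not called by the brightest probe of each. GCLM, the regulatory subunit of glutathione synthesis, read 0.03 by its brighter probe, with 7.94, 8.53 and 9.58 on treated and 8.96, 8.41 and 8.59 on control arrays. Its other probe read 1.21, with 8.88, 8.68 and 8.39 on treated and 7.21, 7.70 and 7.42 on control arrays, which did not overlap. TXNRD1 (-0.26, adjusted p = 0.562 by its brighter probe) and SRXN1 (-0.57, adjusted p = 0.154), which reduce thioredoxin and peroxiredoxins, had treated array 3 highest of the treated arrays. It read 10.69 for TXNRD1 against 10.01 to 10.13 on the controls and 9.58 for SRXN1 against 9.36 to 9.49. The other kept probe of TXNRD1 read -1.75, was detected on 1 treated array, and overlapped between the groups. SLC7A11, the cystine transporter, was not above the detection filter.

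Of 18 measured of 19 genes of amino acid synthesis and transport, 11 were called higher and 0 lower (30.7% and 14.8% over all genes), 8 agreed higher (21.9%) and 7 were not called. The median log2 difference was 0.60 and in array 3 alone 0.68, and it stayed above that of all genes after cyclic loess (0.38) and median scaling (0.44). SLC6A9, the glycine transporter GLYT1, had 8.93, 8.90 and 8.17 on treated and 6.76, 7.04 and 6.92 on control arrays and rose 3.38-fold (1.76, SE 0.24, adjusted p = 0.00263; array 3 alone 1.26, adjusted p = 0.0976). SLC1A4, a neutral amino acid transporter, rose 2.61-fold and SLC1A5, the glutamine transporter, 2.09-fold (array 3 alone 1.05 and 0.81, adjusted p = 0.181 and 0.174). MTHFD2, the mitochondrial folate enzyme, rose 1.98-fold, with 11.43, 11.55 and 11.04 on treated and 10.45, 10.36 and 10.27 on control arrays (adjusted p = 0.00488; array 3 alone 0.69, adjusted p = 0.144).

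ASNS, the asparagine synthetase induced by ATF4, rose by both of its probes, by 0.77 (SE 0.16, adjusted p = 0.00727) and 0.73 on the log2 scale. Its brighter probe read 12.94, 13.06 and 12.92 on treated and 12.16, 12.24 and 12.21 on control arrays, so the treated arrays lay within 0.14 log2 units of each other and clear of the controls. Array 3 alone gave 0.72 (adjusted p = 0.17).

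The regulators of the integrated stress response were mixed: of 14 measured, CEBPB, EIF2AK4 and TRIB3 rose and EIF2AK3 and CEBPG fell (21.9% and 9.76% agreed over all genes). TRIB3, a pseudokinase induced by ATF4 and CHOP, had 10.71, 10.49 and 10.45 on treated and 9.68, 9.79 and 9.80 on control arrays (0.79, SE 0.16, adjusted p = 0.00695; array 3 alone 0.70, adjusted p = 0.169). CEBPB, a bZIP partner of ATF4, rose 1.97-fold (adjusted p = 0.00515; array 3 alone 0.81, adjusted p = 0.151). EIF2AK3, the ER stress kinase PERK, lost its call with 1 array left out (adjusted p = 0.114 without control array 2), and so did CEBPG (0.0585 without control array 3). ATF3, a stress-induced repressor, read -2.41 by its brighter probe (adjusted p = 0.0131), with 6.29, 6.69 and 9.26 on treated and 9.97, 9.80 and 9.71 on control arrays, while its other kept probe was detected on 0 of the 6 arrays. DDIT3, which encodes CHOP, had 7.88, 8.32 and 9.20 on treated and 7.93, 8.41 and 8.23 on control arrays and was not called (0.28, adjusted p = 0.432). Only its treated array 3 lay above the controls, as was the case for SESN2, at 8.47 against 7.32 to 7.81, a stress-induced regulator of mTORC1. CHAC1, a glutathione-degrading enzyme, was detected on 1 treated and 1 control array.

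In the list of secreted stress factors, which also includes the receptor VLDLR, 3 of 6 measured genes agreed higher, beside 21.9% of all genes. The list median was 1.02 (array 3 alone 0.76). INHBE, a subunit of activin E, had 8.03, 7.87 and 7.41 on treated and 6.05, 6.42 and 6.19 on control arrays and rose 2.93-fold (1.55, SE 0.21, adjusted p = 0.0028; array 3 alone 1.19, adjusted p = 0.108). GDF15, a stress hormone of the TGF-beta family, had 8.16, 7.81 and 7.06 on treated and 5.34, 6.83 and 6.29 on control arrays and rose 2.88-fold (adjusted p = 0.013), but lost the call without treated array 1 (adjusted p = 0.0508). STC2, the glycoprotein stanniocalcin 2, had 10.82, 10.72 and 10.48 on treated and 9.46, 9.30 and 9.22 on control arrays and rose 2.55-fold (1.35, SE 0.15, adjusted p = 0.000745; array 3 alone 1.16, adjusted p = 0.0289). Of the 3, STC2 was the one called in array 3 alone.

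Classic glucocorticoid receptor targets were called about as often as all genes. Of 26 measured of 29, 7 were called higher and 2 lower (30.7% and 14.8% over all genes), 5 and 2 agreed (21.9% and 9.76%), and the median of 0.31 was near that of all genes. After median scaling it was -0.01 against -0.08. FKBP5, the immunophilin FKBP51 and a standard readout of the receptor, had 11.16, 11.22 and 11.37 on treated and 12.10, 11.75 and 11.77 on control arrays and fell 1.54-fold (-0.62, SE 0.16, adjusted p = 0.0128). It lost the call without control array 1 (-0.51, adjusted p = 0.0569) and in array 3 alone (-0.50, adjusted p = 0.243), with the treated arrays below the controls in each case. NFKBIA, which encodes the NF-kB inhibitor, fell by 0.62 as well (adjusted p = 0.0209; 0.0828 without control array 1; array 3 alone -0.46, adjusted p = 0.303).

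Among the receptor targets that rose were ARRDC2, an arrestin-domain protein (2.55-fold, adjusted p = 0.00598, both kept probes), GADD45B, a stress sensor (2.28-fold, adjusted p = 0.00599), SCNN1A, the alpha subunit of the epithelial sodium channel (2.13-fold, adjusted p = 0.0154; 0.0552 without control array 1), and ZBTB16, the zinc finger repressor PLZF (2.10-fold, adjusted p = 0.0101). ZBTB16 read 9.03, 8.85 and 8.37 on treated and 7.47, 7.74 and 7.82 on control arrays by the brighter probe, and its other probe gave 1.09. Array 3 alone gave 1.02, 0.84, 0.42 and 0.69 for these 4 genes, with 0 of them called. PER1, a clock gene (-0.30, adjusted p = 0.632), ZFP36, which encodes tristetraprolin (-0.37, adjusted p = 0.237), KLF9, a Krüppel-like factor (0.36, adjusted p = 0.101), and DUSP1, a MAP kinase phosphatase (-0.02, SE 0.18, adjusted p = 0.922), were not called. DUSP1 had 10.45, 11.05 and 10.90 on treated and 10.71, 10.97 and 10.80 on control arrays, which overlapped fully.

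The probes of TSC22D3 and SGK1 disagreed. TSC22D3, which encodes the glucocorticoid-induced leucine zipper GILZ, read 14.31, 13.80 and 13.64 on treated and 13.42, 13.36 and 13.36 on control arrays by its brightest probe (0.54, adjusted p = 0.0343), and 9.25, 11.24 and 13.86 on treated and 13.54, 13.42 and 13.45 on control arrays by another. On treated array 3 both of these probes lay above their controls, and on arrays 1 and 2 they moved apart. The remaining kept probe of TSC22D3 was detected on 0 treated and 2 control arrays. It read 4.54, 4.37 and 4.44 on treated and 10.02, 4.39 and 5.75 on control arrays, which overlapped. SGK1, a glucocorticoid-induced kinase, read -0.18 (adjusted p = 0.264), -3.19 and -2.02 by its 3 kept probes, with array 3 the nearest to the controls in each. No direction is given for either gene. NR3C1, the receptor's own gene, had 5.68, 6.11 and 6.28 on treated and 5.78, 5.97 and 5.59 on control arrays, was detected on 1 treated array, and was not called (0.24, adjusted p = 0.33). Whether the probe lies within the introduced receptor is not given in the sources used here.

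Among 22 measured immediate early genes, 5 agreed higher and 4 lower, beside 21.9% and 9.76% of all genes, so the higher share is near that of all genes. FOSB and FOSL1, subunits of AP-1, read 7.16, 6.57 and 6.58, and 7.64, 7.30 and 7.11 on treated arrays, against 5.83, 5.90 and 5.60, and 5.79, 6.60 and 6.40 on controls (adjusted p = 0.00641 and 0.0187). The phosphatases DUSP5 and DUSP6 rose 1.92-fold and 2.03-fold. Array 3 alone gave 0.81, 0.85, 0.70 and 0.65 for FOSB, FOSL1, DUSP5 and DUSP6. FOS and JUNB were detected on 0 treated and all 3 control arrays, at 5.73, 5.86 and 5.88 for FOS controls and 5.44, 6.42 and 6.04 for JUNB controls, and no fold is given because the lowest detected level averaged 6.09 over the treated arrays, above the mean of the controls for both genes (5.82 and 5.97). IER5 (-1.52) and CCN1 (-0.69) were called lower, and IER5, CCN1, JUNB and FOSL1 lost the call with 1 array left out (highest adjusted p = 0.108 and 0.133 without treated array 1 for IER5 and CCN1, 0.117 without control array 2 for JUNB and 0.0766 without control array 1 for FOSL1).

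The NF-kB feedback and inflammatory targets agreed about as often as all genes (21.9% higher, 9.76% lower). There were 3 increases, in NFKBIE, an NF-kB inhibitor (2.07-fold), TNFAIP3, the deubiquitinase A20 (1.87-fold), and IRF1, an interferon regulator (1.86-fold; adjusted p = 0.0618 without treated array 1), beside the fall of NFKBIA, among 16 measured. Their median was 0.48 (array 3 alone 0.33). TNFAIP3 read 7.44, 7.89 and 7.31 on treated and 6.64, 6.86 and 6.44 on control arrays (adjusted p = 0.00972; array 3 alone 0.67, adjusted p = 0.218). Of 10 measured p53 targets, 0 agreed in either direction, 2 were called higher and 2 lower, and 6 had treated arrays that all lay above the controls. The same held for 37.7% of all genes, and the arrays did not overlap in either direction for 54.1%.

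Among the 15 measured ER chaperones and unfolded protein response genes 4 agreed higher and 4 lower (21.9% and 9.76% over all genes), with a median of 0.01. The ER HSP70 HSPA5, also called BiP, had 8.86, 8.43 and 8.09 on treated and 7.88, 7.79 and 7.85 on control arrays (0.62, adjusted p = 0.0346), and HSP90B1, DNAJB9 and DNAJB11, chaperones and co-chaperones of the ER, had differences of 0.59, 0.68 and 0.56. All 4 lost the call with 1 array left out (highest adjusted p = 0.115 for HSPA5 without treated array 1, and 0.0746, 0.0803 and 0.0563 for the others). HYOU1, an ER exchange factor, fell by both of its probes (-2.72 and -2.85), the disulfide isomerase PDIA6 fell by 3.01 and EDEM1, a degradation factor, by 2.84, each with treated array 3 nearest to the controls. PDIA6 lost its call without treated array 2 (adjusted p = 0.0562).

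For the counts of this paragraph, 21.9% of all genes agreed higher and 9.76% lower, and 30.7% were called higher and 14.8% lower. Of 11 measured ubiquitin and autophagy adaptors of 13, SQSTM1 and MAP1LC3B, an autophagosome protein (0.58), were called higher with agreement and 0 lower. Proteasome subunits were mostly near the all-gene median (0.22 over 27 measured of 31), with 7 agreeing higher and 2 lower, about as often as all genes. PSMB4, PSMB3 and PSMB7, of the core particle, rose 1.96-fold, 1.72-fold and 1.69-fold, with PSMB7 not called without control array 1 (adjusted p = 0.0739). PSMB4 read 13.10, 13.09 and 12.58 on treated and 11.92, 12.03 and 11.91 on control arrays (adjusted p = 0.00717; array 3 alone 0.63, adjusted p = 0.215). Of 10 measured chaperonins 2 agreed higher and 1 lower. Chaperonins of the CCT ring, which fold actin and tubulin, gave CCT5 2.20-fold (adjusted p = 0.00855; array 3 alone 0.55) and CCT4 1.93-fold higher (adjusted p = 0.00568; array 3 alone 0.61), and CCT8 was 2.49-fold lower at an adjusted p of 0.0483 that rose above the threshold in most fits with 1 array left out. Of 14 measured sterol genes, CYP51A1 (2.64-fold), FDPS (2.14-fold) and HMGCS1 (1.55-fold; adjusted p = 0.085 without treated array 2), enzymes of cholesterol synthesis, rose, while 5 were called higher and 4 lower in all and 0 agreed lower. Array 3 alone gave 0.59, 0.84 and 0.29 for these 3 enzymes. Of 11 measured tRNA synthetases, EPRS1 (0.53) and NARS1 (0.48) were called, and both lost the call with 1 array left out (highest adjusted p = 0.105 and 0.0674).

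**Figure D3:**
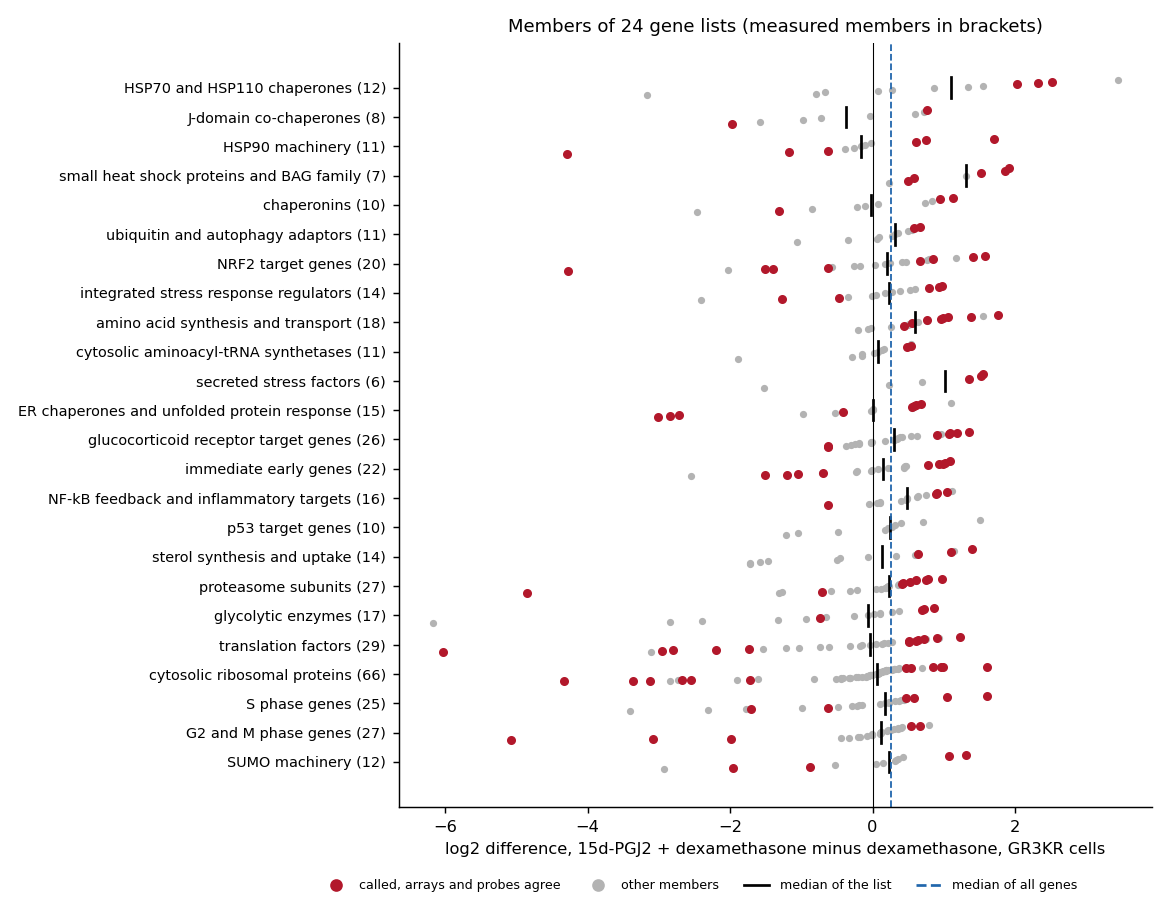
Log2 difference of every measured member of 24 gene lists (treated minus control, GR3KR cells), with members whose call agreed over arrays and probes in red and other members in grey. Black ticks are list medians and the blue dashed line is the median of all genes, 0.26; the HSP70, small heat shock, amino acid and secreted factor lists have medians from 0.60 to 1.32.

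Increases were also taken from genes with several kept probes that agree. The 12 largest ran from 2.57-fold for TRMT2A, a tRNA methyltransferase, to at least 3.53-fold for NLE1, a factor of large ribosomal subunit assembly. The others were MAP2, a neuronal microtubule protein, RNU11, the U11 RNA of the minor spliceosome, NRF1, nuclear respiratory factor 1, RPL14, a large-subunit ribosomal protein, TRAPPC2L, a trafficking subunit, RHBDL2, a rhomboid protease, and FAM167A, CMTM1, FAM204A and ZC2HC1C. RPL14 read 12.05, 12.46 and 11.66 on treated and 9.92, 10.71 and 10.71 on control arrays by one probe (1.61, SE 0.38, adjusted p = 0.0101) and 1.33 by the other. Treated array 3 was the lowest treated array in all 12 of these genes but none was called in array 3 alone, where their adjusted p ran from 0.127 to 0.391. RHBDL2 and TRMT2A lost the call with 1 array left out (highest adjusted p = 0.0592 without treated array 1 and 0.0564 without control array 1). Of genes with 1 probe, the named increases beside HSPA1A and HSPA1L were TEX19, a germ-cell gene (5.06-fold, adjusted p = 0.00113; array 3 alone 1.80, adjusted p = 0.0483), B4GALT1, a Golgi galactosyltransferase (5.04-fold), SNHG8, a snoRNA host transcript (4.70-fold), and LINC00526, TMEM68 and MIR98, a let-7 family microRNA (at least 4.37-fold, 3.71-fold and 3.66-fold).

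The decreases were larger and less even over the arrays. EIF4G1, the scaffold of the cap-binding complex in translation initiation, had 9.14, 8.79 and 9.51 on treated and 11.24, 11.40 and 11.39 on control arrays. It fell 4.60-fold (-2.20, SE 0.20, adjusted p = 0.000524), and array 3 alone gave -1.84 (adjusted p = 0.0195). Its other kept probe read 8.65, 8.08 and 8.24 on treated and 10.87, 10.90 and 10.98 on control arrays, so both probes and all arrays gave a fall of similar size, detected throughout.

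FTL, the ferritin light chain, had 7.76, 7.77 and 11.57 on treated and 13.32, 13.19 and 13.43 on control arrays. The fall of 19.4-fold over 3 arrays (adjusted p = 0.00582) was 1.74 on the log2 scale in array 3 alone (adjusted p = 0.0269), and the other probe gave 7.23, 7.17 and 11.71 on treated and 13.33, 13.27 and 13.44 on control arrays. CYBA, the p22phox subunit of NADPH oxidase, had 5.75, 4.82 and 7.62 on treated and 12.50, 11.90 and 12.45 on control arrays and was at least 46.8-fold lower (-6.22, SE 0.62, adjusted p = 0.000631; array 3 alone -4.66, adjusted p = 0.0212). In both genes array 3 lay between the other treated arrays and the controls.

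The other large falls were uneven over arrays or probes. PKMYT1, a kinase that inhibits CDK1, read 4.63, 4.61 and 4.64 on treated and 9.19, 9.59 and 10.31 on control arrays, detected on 0 treated arrays, and was at least 12.1-fold lower (adjusted p = 0.00647; array 3 alone adjusted p = 0.176), while its other probe read 6.90 on treated array 3 and -2.59 over all arrays. SSR2, a subunit of the ER translocon-associated complex, had 5.14, 4.65 and 8.33 on treated and 10.71 to 11.23 on control arrays (at least 16.1-fold lower, adjusted p = 0.00537; array 3 alone adjusted p = 0.171). Its other probe was about equally low on the treated arrays, at 5.75, 6.12 and 5.84. MPST, a sulfurtransferase, GET4, which inserts tail-anchored proteins, ZMAT5, of the minor spliceosome, GNG10, a G protein subunit, and CDV3 were lower by both kept probes, by at least 9.17-fold by the brighter one. The other probe of MPST fell far less, at 7.19, 6.57 and 8.32 on treated and 8.37, 8.33 and 8.40 on control arrays. For the rest, the other probe read -1.74 for GET4, -3.40 for ZMAT5, -1.29 for GNG10 and -4.42 for CDV3. By the brighter probe, array 3 alone gave -2.48 for MPST, -2.94 for GET4, -2.92 for ZMAT5, -3.31 for GNG10 and -1.80 for CDV3, with 0 of them called. PSMC4, HNRNPH1, PI4KAP2 and CACYBP, also among the 12 largest, lost the call with 1 array left out (highest adjusted p = 0.081, 0.11, 0.0534 and 0.0611), and the controls of PSMC4 were uneven, at 10.86, 7.65 and 10.27.

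Of genes with 1 probe, EEF1G, an elongation factor subunit, had 7.01, 6.72 and 10.51 on treated and 14.26, 13.89 and 14.19 on control arrays and fell 65.4-fold (-6.03, SE 1.20, adjusted p = 0.00693), with -3.60 in array 3 alone (adjusted p = 0.24). AHCY, which hydrolyses S-adenosylhomocysteine, PRMT1, an arginine methyltransferase, LGALS3BP, GPAA1, of GPI anchoring, MRPL12, a mitochondrial ribosomal protein, and WDR45B, of autophagy, were at least 13.5-fold to 29.4-fold lower and were detected on at most 1 treated array. None of these 7 was called in array 3 alone, where adjusted p ran from 0.0566 for AHCY to 0.24 for EEF1G.

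**Figure D4:**
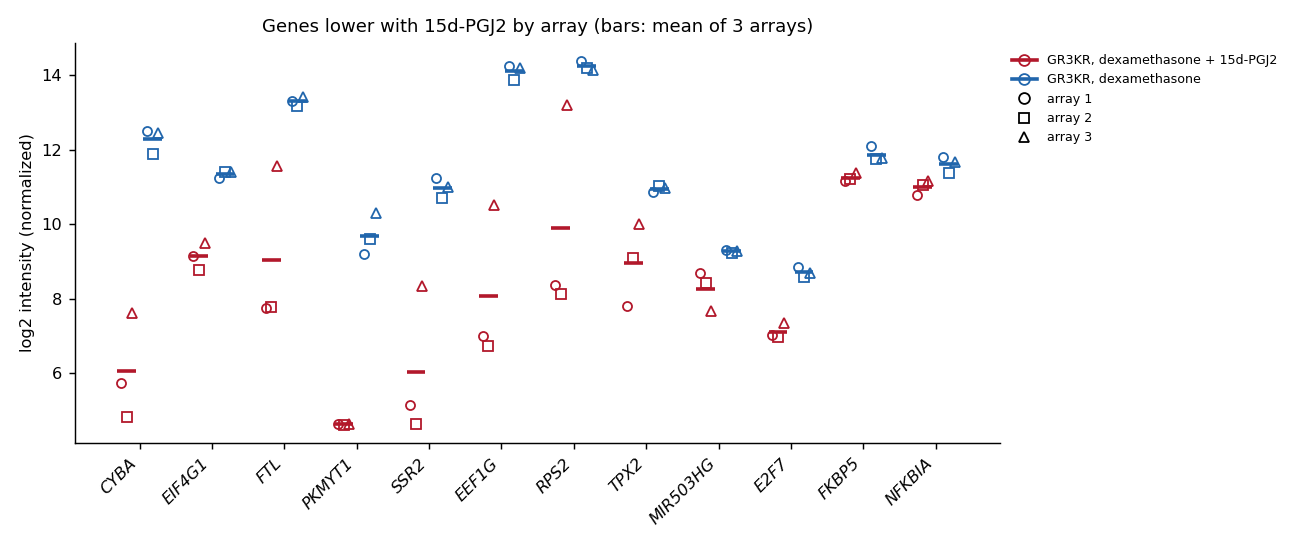
Log2 intensity of genes lower on the treated arrays (GR3KR, dexamethasone and 15d-PGJ2, red) than on the control arrays (GR3KR, dexamethasone, blue), with array number as the symbol and the mean as a bar. Treated array 3 lies nearest to the controls for most of them, while MIR503HG is lowest on array 3 (7.67) and EIF4G1, PKMYT1 and E2F7 are about equally low on all 3.

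The decreases that array 3 alone also gave are named here after their values were seen. They number 43, of which 9 have several kept probes, 10 were detected on all 3 treated arrays and 17 on 0 of them. MIR503HG, a noncoding host transcript of a microRNA cluster, had 8.68, 8.42 and 7.67 on treated and 9.31, 9.22 and 9.29 on control arrays and fell by 1.02 (SE 0.23, adjusted p = 0.00962), and by 1.60 in array 3 alone (adjusted p = 0.0203). Here array 3 was the lowest, unlike the genes above. E2F7, a repressor of E2F targets, had 7.01, 6.98 and 7.34 on treated and 8.85, 8.59 and 8.69 on control arrays and fell 3.02-fold (adjusted p = 0.000652; array 3 alone -1.37, adjusted p = 0.0301). LRFN3, PODXL2, ARF5, STX10, POLR2C and BANF1 were the others detected on all treated arrays. Beside the heat shock genes, HMOX1, STC2 and TEX19, the increases that array 3 alone gave were in OLFML3, a secreted glycoprotein (2.47-fold), and in PLA2G12A, a phospholipase, PHF8, a histone demethylase, and ZSCAN29, a zinc finger protein, which were detected on 0 controls and at least 2.91-fold, 1.96-fold and 2.51-fold higher, and in KIAA0319, at least 3.83-fold higher.

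Translation factors and ribosomal proteins, among the brightest genes on the arrays, had medians of -0.03 and 0.07, below the all-gene 0.26 after quantile normalization, and above the all-gene -0.08 after median scaling (0.00 and 0.26). Of 29 measured translation factors 7 agreed higher and 5 lower, and of 66 ribosomal proteins 6 and 6, beside 21.9% and 9.76% of all genes. RPS2 had 8.38, 8.14 and 13.21 on treated and 14.39, 14.21 and 14.15 on control arrays, a fall of 4.34 over 3 arrays (adjusted p = 0.0101) and of 1.03 in array 3 alone (adjusted p = 0.144). RPL30 (-2.67), and RPS7 and RPS9 by both probes (-3.12 and -3.36), had the same order of arrays, and RPS9 lost its call without treated array 2 (adjusted p = 0.0726). EIF2S1, the alpha subunit of eIF2 that stress kinases phosphorylate, rose 1.87-fold, with 9.70, 9.56 and 9.34 on treated and 8.60, 8.85 and 8.44 on control arrays (adjusted p = 0.00707; array 3 alone 0.71, adjusted p = 0.197).

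Cell cycle genes were mostly not called. The genes named in this paragraph are those that agreed, as did 21.9% (higher) and 9.76% (lower) of all genes. Of 25 measured S phase genes, 4 agreed higher (E2F1, CDC6, CDT1 and GINS2) and 2 lower (TYMS and RRM1). E2F1, the S phase transcription factor, rose 3.05-fold, with 7.73, 7.79 and 6.81 on treated and 5.82, 5.62 and 6.05 on control arrays (adjusted p = 0.00827; array 3 alone 0.98, adjusted p = 0.263). Of 27 measured G2 and M phase genes, CCNB2 and PLK1 were called higher, and PKMYT1, KIF23 and TPX2 fell, TPX2, a spindle assembly factor, by 1.99 (7.81, 9.08 and 10.01 on treated and 10.88, 11.02 and 10.98 on control arrays, adjusted p = 0.0107). With 1 array left out, CDC6, CDT1, GINS2, RRM1, CCNB2 and PLK1 lost the call (highest adjusted p = 0.0547 to 0.159). Of 17 measured glycolytic enzymes, 3 were called higher and 6 lower, beside 30.7% and 14.8% of all genes. Their median was -0.06, against 0.26 over all genes. ENO2, PFKM and ALDOC agreed higher and GPI lower. All 4 lost the call with 1 array left out (highest adjusted p = 0.0646 to 0.114).

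In the SUMO machinery, 12 of 17 genes were measured, and 2 agreed higher and 2 lower (21.9% and 9.76% over all genes). The SUMO proteases SENP5 and SENP3 rose and SENP6 and RANBP2, a protease and a nuclear pore SUMO ligase, were called lower. SENP5 read 9.64, 10.12 and 9.82 on treated and 8.48, 8.59 and 8.56 on control arrays and rose 2.49-fold (1.32, SE 0.26, adjusted p = 0.00695), with 0.61 by its other probe and 1.28 in array 3 alone (adjusted p = 0.169). SENP3 had 7.41, 6.79 and 6.88 on treated and 5.81, 6.16 and 5.91 on control arrays (2.10-fold, adjusted p = 0.00926; array 3 alone 0.92, adjusted p = 0.197). RANBP2 was detected on 0 treated arrays and SENP6 on 2, and both lost the call with 1 array left out (highest adjusted p = 0.0645 without control array 3 and 0.0751 without treated array 2).

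The response was then set beside that of wtGR cells, which had their own treated and control arrays. The spread was pooled over the 4 groups, so the uneven GR3KR treated arrays also entered the errors of the wtGR test. DNAJB1, for example, was higher by 3.84 in wtGR cells but was not called (SE 0.75, limma adjusted p = 0.0815). The number of wtGR calls therefore does not measure the size of the wtGR response. In wtGR cells 27 genes were called (0.219%), 18 higher and 9 lower. Of the 18, 13 were called higher in GR3KR cells as well, and of the 9, PRR15L and MIR503HG were called lower, beside 30.7% and 14.8% of all genes. The fitted log2 difference was smaller in GR3KR than in wtGR cells for 17 of the 18 (all but ZFAND2A) and nearer to 0 or opposite for 9 of the 9. Since these 27 were chosen by their size in wtGR cells, which enter the comparison, the counts are a description. The difference between the lines' responses was called for 18 of the 27 over all arrays and for 1, HSPA7, with treated array 3 alone.

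HSPA6 had a log2 difference of 3.45 in GR3KR and 5.74 in wtGR cells, a gap of -2.29 (SE 0.32, adjusted p = 0.00864; -2.32 and adjusted p = 0.0561 with array 3 alone), and HSPA7 one of 2.03 and 4.48, a gap of -2.45 (SE 0.33, adjusted p = 0.00819; -2.59 and adjusted p = 0.0431). HMOX1 had 1.58 and 2.78 (gap -1.20, adjusted p = 0.0181; array 3 alone adjusted p = 0.0842). HSPH1 had 0.07 and 1.86, BAG3 0.24 and 1.62, DUSP1 -0.02 and 1.21, and HSPA1B -0.67 and 3.83, GR3KR first, with gaps called over all arrays (adjusted p = 0.0157, 0.0222, 0.0187 and 0.00864) and not with array 3 alone (0.0842, 0.146, 0.0842 and 0.0727). With array 3 alone the gaps of these 4 genes were -1.54, -0.94, -1.13 and -3.82.

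For other genes the gap between the lines was not called. CRYAB had 1.86 and 1.88 (gap -0.03, SE 0.44, adjusted p = 0.965), ZFAND2A 1.91 and 1.54 (gap 0.37, SE 0.28, adjusted p = 0.323) and TRIB3 0.79 and 1.15 (gap -0.35, SE 0.22, adjusted p = 0.234), which does not show that the responses were equal. HSPA1A had 2.52 and 3.28, with its probe detected on 3 GR3KR but 0 wtGR controls, so the gap is not read, although the counts above include it. Mean treated levels of HSPA1A and HSPA1B were 12.56 and 9.97 in GR3KR cells, but 7.8 and 14.14 in wtGR cells. The probes of this pair stood in opposite order in the lines and can share signal, so the HSPA1B gap is uncertain too. EPHB1, an ephrin receptor, and IFIT1, an interferon-induced gene, were higher in GR3KR (0.64 and 0.63, adjusted p = 0.0156 and 0.0226) and lower in wtGR cells (-1.17 and -1.50), with gaps of 1.81 and 2.14 (adjusted p = 0.00819 and 0.00714; 0.0561 for both with array 3 alone).

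**Figure D5:**
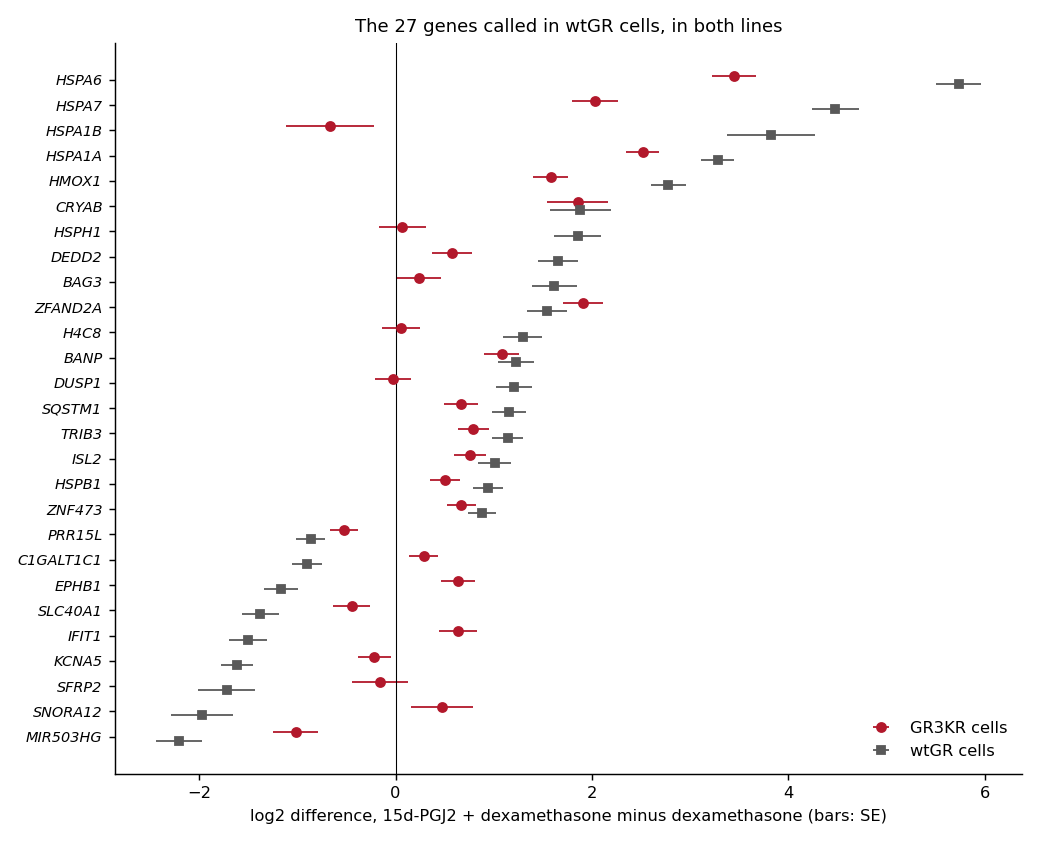
Log2 difference between cells with 15d-PGJ2 and dexamethasone and cells with dexamethasone alone, in GR3KR (red circles) and wtGR cells (grey squares), for the 27 genes called in wtGR cells; bars are standard errors. The red points lie nearer to 0 than the grey ones for most genes, among them HSPA6 (3.45 against 5.74), and above for ZFAND2A (1.91 against 1.54).

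Over all genes, the responses of the lines differed at an adjusted p under 0.05 for 3044 (24.7%), of which 2114 were among the 3902 agreeing genes, and for 24 with treated array 3 alone. This count turned on single arrays. It was 1277, 380 and 6502 without treated array 1, 2 or 3, 330, 1951 and 321 without control array 1, 2 or 3, 209 and 127 without wtGR 15d-PGJ2 array 1 or 2, and 1475 and 723 without wtGR dexamethasone array 2 or 3.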

How the data were processed

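RNA of 12 samples was labelled and hybridised to Illumina BeadChips, 1 colour per array. The deposited scanner table holds bead intensity values, which per the file headers come with a detection p-value each and are not normalized. The deposited processed table holds log2 intensities, for which the submitters' processing notes name lumi, and served as an alternative. Scanner software and background handling are not given in the sources used here.

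Intensities were background-corrected by normexp from the detection p-values and quantile-normalized (neqc of limma 3.58.1 in R 4.3.3, offset 16), on the log2 scale. Probes with a detection p under 0.01 on at least 3 of 12 arrays were kept (20909 of 47312), 16339 with 1 gene symbol in the platform annotation; the other 4570 were left out. Of the annotated probes, 30107 had 1 symbol, 8 several and 17197 none. Each gene was read by its kept probe of highest mean over 12 arrays, giving 12337 genes. limma was fitted to the 4 groups together, with moderated errors and Benjamini-Hochberg adjustment over all genes. The response difference between lines was tested as an interaction. Array 3 alone means a fit without treated arrays 1 and 2. An "at least" fold raised each undetected array of the dimmer group to that array's lowest detected level. The limma fit was tested on simulated gene values whose spread was the same on every array, unlike these data. The check of array overlap was tested on constructed values. The other steps were not tested in this way.

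Named genes were the 12 largest agreeing changes each way among genes with several kept probes, the 8 largest each way with 1 probe, 35 core genes, and up to 4 agreeing members each way of 24 gene lists. The members and lists were chosen with earlier results of these data known. Alternatives covered normalization, background, filters, probe choice, array weights, each array left out and a replicate block.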

Additional observations from a re-analysis of the deposited data

Results flagged for a closer look

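The response to 15d-PGJ2 differed between the lines for 91 named genes over all arrays, and for 5 of these also with treated array 3 alone (limma interaction). The gap, the log2 difference in GR3KR minus that in wtGR cells, was -7.05 for CYBA (adjusted p = 0.00688; array 3 alone -5.49, adjusted p = 0.036). For DNAJB1 it was -5.42 (adjusted p = 0.0165; array 3 alone -3.05, adjusted p = 0.0249). FTL gave -4.83 (adjusted p = 0.0216; array 3 alone -2.29, adjusted p = 0.036). EIF4G1 gave -2.61 (adjusted p = 0.00688; array 3 alone -2.25, adjusted p = 0.0249), and HSPA7 -2.45 (adjusted p = 0.00819; array 3 alone -2.59, adjusted p = 0.0431). What part the low detection of the treated arrays has in these gaps was not tested.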

How the results depend on the processing

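The counts of calls, agreeing calls and called differences between the lines were 5608, 3902 and 3044. Leaving out 1 array at a time gave 2532 to 7691, 2011 to 5894 and 127 to 6502. The 6 GR3KR arrays alone gave 3132 calls and 2454 agreeing. Median scaling gave 2882, 2181 and 1350, and cyclic loess 1496 differences. Array weights, whose estimation stopped before convergence, gave 3431 calls and 2287 agreeing. Treated array 3 alone gave 60, 57 and 24. With the number of detected probes as a covariate, which largely follows the treated group, 0 genes were called and 0 agreed (limma; 376 at an unadjusted p under 0.05), with 1 called difference. Under that covariate 8 named genes changed sign: PI4KAP2 0.15, NQO1 -0.0122, ATF3 0.0734, HMGCS1 -0.0651, ALDOC -0.0685, RPS9 0.00368, PLK1 -0.13 and SENP6 0.32. TSC22D3 read -1.25 as the mean of its kept probes. Of 147 called named genes, 88 held in all 12 fits with 1 array left out, and array 3 alone kept the call status of 28 of 164. The cause of these shifts was not tested.

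Same-numbered arrays of the groups did not deviate together (r of -0.087, 0.017 and 0.049), so the numbers were not taken to pair samples. With the replicate block the counts were 5451 calls, 3753 agreeing and 2225 differences.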
